A study of Mus musculus with 12 samples.

Results

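The genes described here are 10 chaperones and folding factors of the endoplasmic reticulum (ER) that are known as targets of the transcription factor ATF6: Hspa5, Hyou1, Dnajb11, Sdf2l1, Manf, Creld2, Hsp90b1, Calr, Pdia4 and Pdia6. They were chosen by name and found on the array through the accession of each probe. Of the 10 genes, 9 had a matched probe, out of 32629 genes or transcripts on the array and 23320 that were tested. Dnajb11 was not measured here. The 9 genes were covered by 13 probes, and each probe was well above background on all 12 arrays.

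RNA from the whole colon of male C57BL/6J mice was hybridised to 12 one-colour Agilent arrays, 2 in each of 6 groups. The groups were mice lacking Atf6 (ATF6aKO) given dextran sulfate sodium (DSS) or left untreated (UT), mice lacking Atf6b (ATF6bKO) given DSS or left untreated, and wild-type (WT) mice in the same 2 conditions. DSS, which damages the lining of the colon and brings on colitis, was given at 3% in drinking water for 3 days. The sources used here do not give the age of the mice, or how the knockout alleles were made. The labels number the samples of a group without saying that they came from separate animals, so p-values measure the spread between these samples, and that spread may be technical.

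For the 4 WT samples the title and the treatment field contradict each other. Here WT groups follow the titles, under the names titled DSS and titled UT, and the treatment field would exchange them. In the authors' value table, too, the 4 columns of the WT samples held the values of the other WT group's arrays, whereas no knockout column left its group. Each genotype was on a slide of its own, with a scan of its own, so genotype and slide cannot be told apart in any comparison of genotypes. Atf6 had levels of −3.08 and −3.23 on the ATF6aKO DSS arrays and −3.23 and −3.04 on the ATF6aKO UT arrays, against 0.60 to 1.22 on the other 8 arrays, which fits the labels. Atf6b was well above background on 1 of the 4 ATF6bKO arrays and was at least 28.2-fold lower there than on the WT arrays. That bound takes, on each ATF6bKO array, the higher of the probe's own signal and the dimmest signal well above background. The test of Atf6b (limma, adjusted p = 0.00185) used the levels as measured, dim signals included, and not the bound. A level throughout is the log2 processed signal minus the log2 75th percentile of the same array. All 12 colonic epithelium markers were well above background on both arrays of every group.

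ATF6a and ATF6b are made as membrane proteins of the ER. When unfolded proteins accumulate, they move to the Golgi and are cut there, and the released part enters the nucleus and binds ER stress elements in the promoters of chaperone genes. BiP, the product of Hspa5, binds unfolded chains in the ER lumen, and it also holds ATF6a in the ER until stress draws it away. In the colon this folding capacity is used most by cells with a heavy secretory load, such as mucus-producing goblet cells and antibody-producing plasma cells.

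The promoters of the genes are shown because the ER stress element is the sequence to which ATF6 is known to be recruited. The element, ERSE, was searched on both strands as CCAAT, any 9 bases and CCACG, in windows of 250 bases before to 50 bases after the annotated start, from RefSeq (GRCm38.p6). Windows were at hand for 8 of the 10 genes, all but Hyou1 and Manf. Exact matches lay in 5 of those 8, against 39 of 32841 windows of all genes (0.119%). The genes were picked as known ATF6 targets, so this share is a description and no independent test. The second element, ERSE-II, searched as ATTGG, any 1 base and CCACG, matched in Dnajb11 alone among the 8, against 0.0365% of all windows. The motif TGACGTGG, which ATF6 binds by itself in test tube selections, matched in none of the 8 and in 0.676% of all windows. The elements are given below from the strand on which they read forward, with the 2 fixed parts in capitals.
Hspa5: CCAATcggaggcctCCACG
Hsp90b1, upstream copy: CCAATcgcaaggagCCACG
Hsp90b1, downstream copy: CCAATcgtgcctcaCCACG
Calr: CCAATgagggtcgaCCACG
Pdia6: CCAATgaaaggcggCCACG
Creld2: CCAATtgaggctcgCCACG
Dnajb11: ATTGGcCCACG

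The first fixed part of ERSE is the box to which the factor NF-Y binds, and the second is the part read by ATF6. The element of Hspa5 began 65 bases before the start and ran forward. Hsp90b1 was the one gene with 2 exact matches, and near matches were not searched. The first match of Hsp90b1 began 212 bases before the start and ran forward, and the other lay nearer and ran in reverse. The upstream end of the element lay at 162 bases for Calr and 126 bases for Creld2, both in reverse, and at 98 bases for Pdia6, forward. Pdia4 and Sdf2l1 had none of the 3 motifs in their windows. The 250 bases before the start are given in full for Hspa5 and Creld2, with the element in capitals. That of Hspa5 is chr2:34771840-34772089 and that of Creld2 is chr15:88819396-88819645, both on the plus strand.
Hspa5: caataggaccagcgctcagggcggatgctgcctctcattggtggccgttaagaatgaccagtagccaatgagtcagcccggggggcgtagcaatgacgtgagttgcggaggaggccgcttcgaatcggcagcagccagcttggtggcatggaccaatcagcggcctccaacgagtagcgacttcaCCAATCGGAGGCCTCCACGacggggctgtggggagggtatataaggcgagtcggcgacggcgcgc
Creld2: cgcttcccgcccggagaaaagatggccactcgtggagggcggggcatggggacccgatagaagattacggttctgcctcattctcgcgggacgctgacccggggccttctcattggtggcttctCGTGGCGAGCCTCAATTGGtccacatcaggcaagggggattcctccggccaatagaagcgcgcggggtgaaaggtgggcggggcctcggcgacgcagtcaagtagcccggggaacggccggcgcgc

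**Figure D1:**
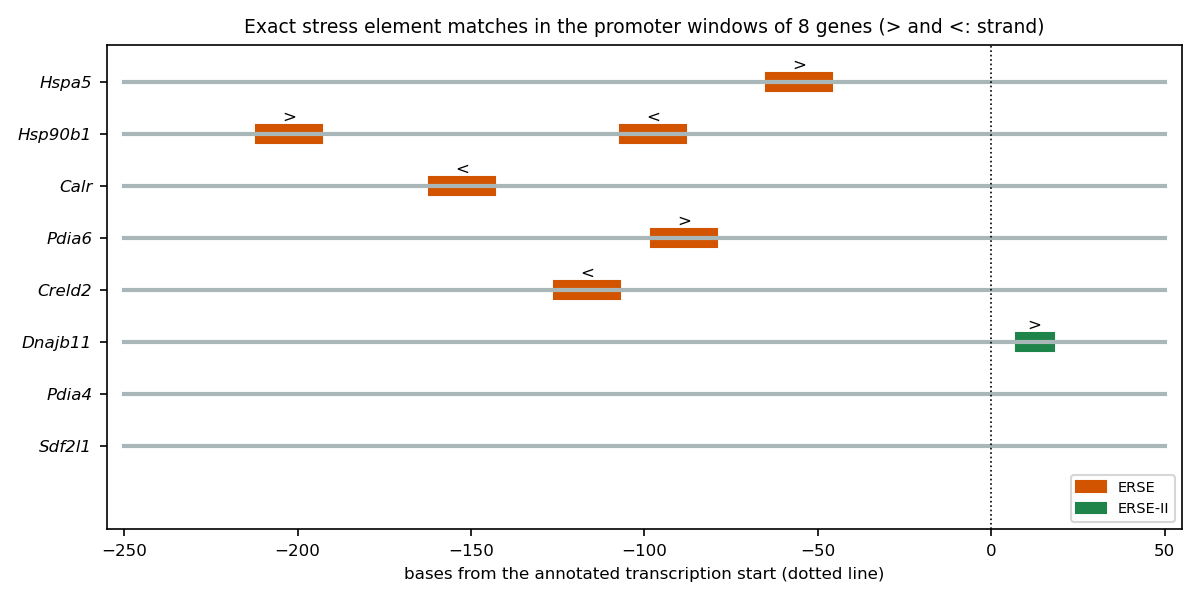
Position of exact ERSE (orange) and ERSE-II (green) matches in the promoter windows of 8 genes; the horizontal axis is the distance in bases from the annotated start and the arrowheads give the strand. The upstream ends of the ERSE matches lie between 212 and 65 bases before the start, and Pdia4 and Sdf2l1 have no match.

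In ATF6bKO mice, all 9 measured genes were higher on both DSS arrays than on both UT arrays, a pattern shown by 26.4% of all genes there. Hyou1 and Creld2 passed the test, and the median log2 difference of the 9 genes was 0.70, against −0.06 over all genes. In ATF6aKO mice, 4 of the 9 genes (Hspa5, Calr, Pdia4 and Hyou1) lay wholly higher with DSS, against 36.2% of all genes. None of the 9 passed the test in ATF6aKO, and their median difference was 0.23, against 0.04 over all genes. The difference between the 2 responses was not past the threshold for any gene.

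**Figure D2:**
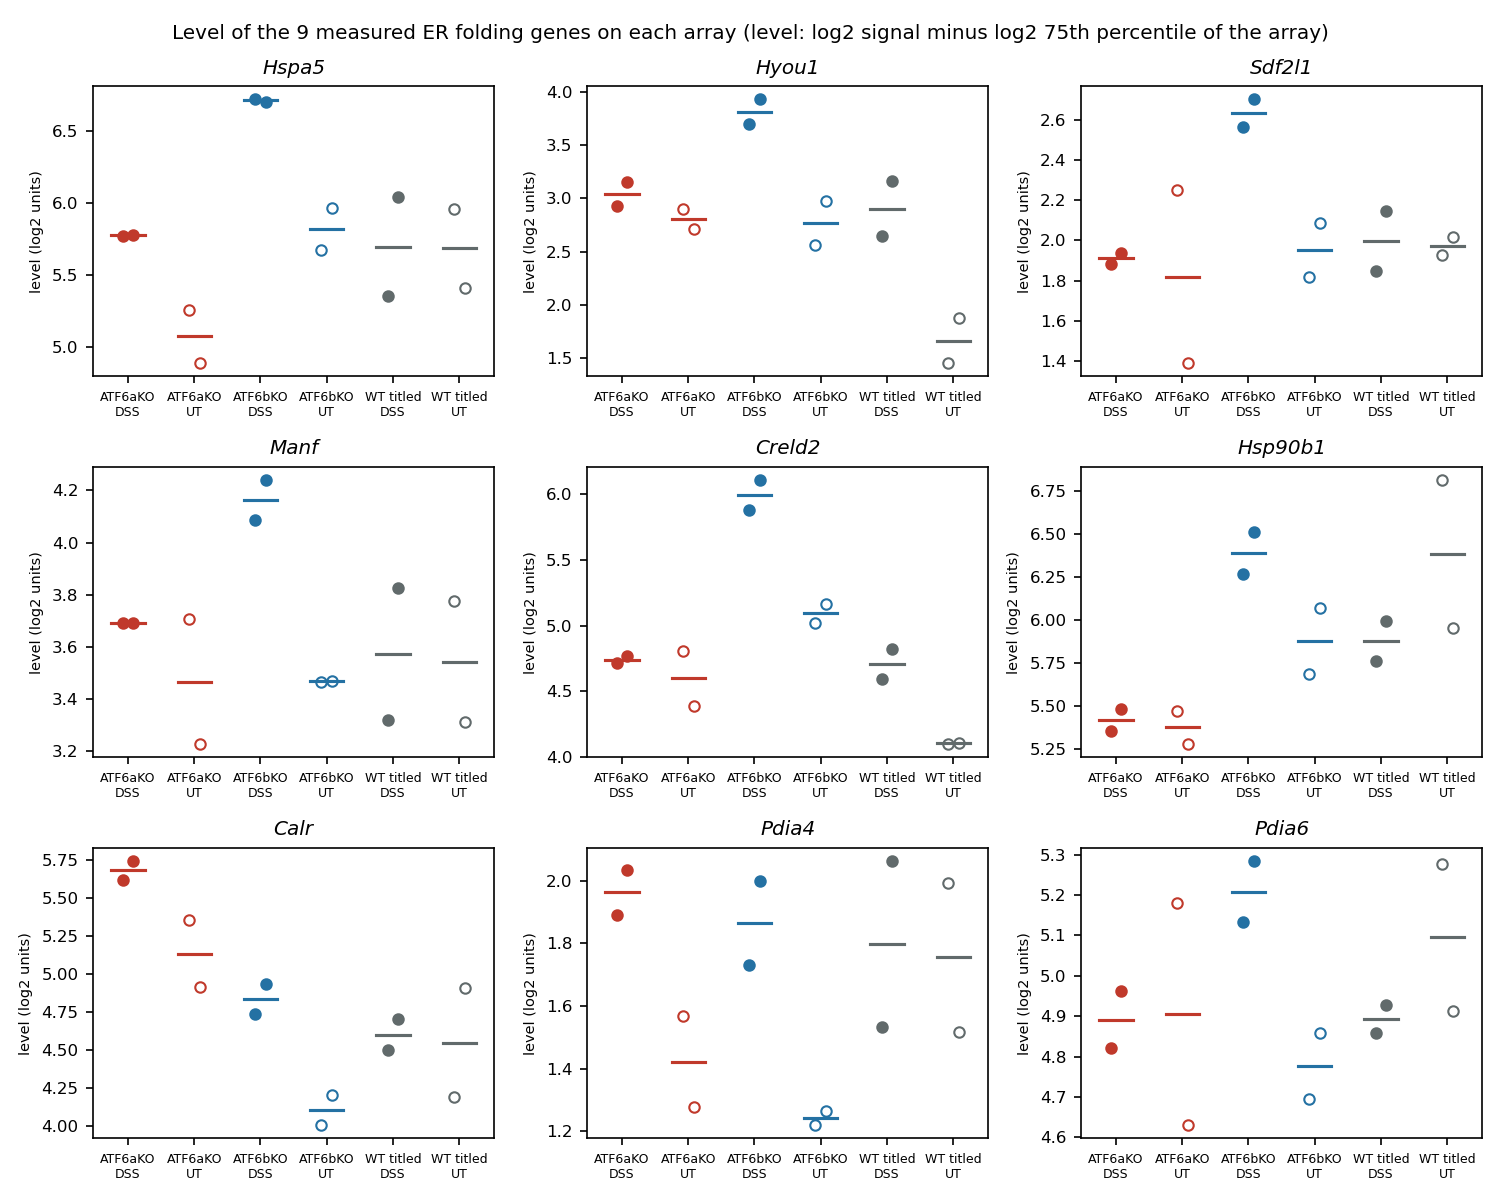
Level (log2 units, vertical axis, a scale of its own in each panel) of the 9 measured genes on each of the 12 arrays; filled points are DSS arrays, open points UT arrays, bars the group means, and the WT groups are by titles. In ATF6bKO (blue) the 2 DSS points lie above the 2 UT points in all 9 panels; in ATF6aKO (red) they do so for Hspa5, Hyou1, Calr and Pdia4.

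BiP works with several helpers in the same compartment. Hspa5 had levels of 5.77 and 5.78 on the ATF6aKO DSS arrays, against 5.26 and 4.89 on the ATF6aKO UT arrays. In ATF6bKO its levels were 6.72 and 6.70 with DSS, against 5.67 and 5.96 without. On the WT arrays they were 5.35 and 6.04 in titled DSS, against 5.96 and 5.41 in titled UT. The knockout groups were each apart from their untreated group, the WT groups overlapped, and the ATF6bKO DSS arrays were the highest of the 12. The log2 difference, DSS minus UT, was 0.70 in ATF6aKO (SE 0.27, limma adjusted p = 0.164) and 0.89 in ATF6bKO (SE 0.27, limma adjusted p = 0.0658). Without the WT arrays in the fit, the same differences had adjusted p = 0.0488 in ATF6aKO and 0.0202 in ATF6bKO.

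Hyou1 encodes an ER protein of the large HSP70 group that exchanges the nucleotide bound by BiP. Its levels were 2.93 and 3.15 on the ATF6aKO DSS arrays, against 2.90 and 2.72 on the ATF6aKO UT arrays. In ATF6bKO they were 3.70 and 3.93 with DSS, against 2.57 and 2.97 without. The titled DSS arrays of WT had 2.64 and 3.17, against 1.46 and 1.88 on the titled UT arrays. All 3 genotypes were apart by treatment, and the gap was narrowest in ATF6aKO. Hyou1 rose by 1.04 in ATF6bKO (SE 0.25, limma adjusted p = 0.0269), and was higher by 1.24 in titled DSS than in titled UT of WT (SE 0.25, limma adjusted p = 0.00823). The value in ATF6aKO was 0.23 (SE 0.25, limma adjusted p = 0.608).

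Creld2 encodes a small ER protein with disulfide isomerase activity that is secreted under stress. Its levels were 4.71 and 4.77 on the ATF6aKO DSS arrays, against 4.81 and 4.39 on the ATF6aKO UT arrays. In ATF6bKO they were 5.88 and 6.11 with DSS, against 5.02 and 5.17 without. WT had 4.60 and 4.82 in titled DSS, against 4.10 and 4.11 in titled UT. The ATF6bKO arrays, with or without DSS, were all above the other 8, and the ATF6aKO groups overlapped. Creld2 rose by 0.90 in ATF6bKO (SE 0.19, limma adjusted p = 0.0167) and was higher by 0.61 in titled DSS of WT (SE 0.19, limma adjusted p = 0.0389). The value in ATF6aKO was 0.14 (SE 0.19, limma adjusted p = 0.698).

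Manf encodes an ER protein that binds BiP and stabilises it on its clients, and that is also secreted. Its levels were 3.69 on each ATF6aKO DSS array, against 3.71 and 3.23 on the ATF6aKO UT arrays. In ATF6bKO they were 4.09 and 4.24 with DSS, against 3.46 and 3.47 without. The ATF6bKO groups were far apart and the ATF6aKO groups overlapped. Sdf2l1 encodes a partner of the ER J-domain proteins that deliver chains to BiP. Its levels were 1.88 and 1.94 on the ATF6aKO DSS arrays, against 2.25 and 1.39 on the ATF6aKO UT arrays. In ATF6bKO they were 2.57 and 2.70 with DSS, against 1.82 and 2.09 without. On the WT arrays both genes overlapped between groups, with Manf at 3.32 and 3.82 in titled DSS, against 3.77 and 3.31 in titled UT, and Sdf2l1 at 1.85 and 2.15 in titled DSS, against 1.93 and 2.02 in titled UT. The DSS difference in ATF6bKO was 0.70 for Manf (limma adjusted p = 0.098) and 0.68 for Sdf2l1 (limma adjusted p = 0.132), and neither passed.

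Hsp90b1 encodes GRP94, the HSP90 protein of the ER, and Calr encodes calreticulin, a lectin chaperone that binds glycoproteins and calcium. Hsp90b1 had levels of 5.36 and 5.48 on the ATF6aKO DSS arrays, against 5.47 and 5.28 on the ATF6aKO UT arrays. In ATF6bKO it had 6.27 and 6.51 with DSS, against 5.68 and 6.07 without. WT had 5.76 and 6.00 in titled DSS, against 6.81 and 5.95 in titled UT. By the probe used, the 4 ATF6aKO arrays lay below the other 8 for this gene. On the second Hsp90b1 probe ATF6aKO DSS replicate 1 (4.67) was above ATF6bKO UT replicate 1 (4.52). By that probe the ATF6aKO DSS arrays (4.67 and 4.46) lay above the ATF6aKO UT arrays (4.43 and 4.20). Calr had 5.62 and 5.74 on the ATF6aKO DSS arrays, against 5.35 and 4.91 on the ATF6aKO UT arrays. In ATF6bKO it had 4.74 and 4.93 with DSS, against 4.0 and 4.20 without. WT had 4.5 and 4.70 in titled DSS, against 4.19 and 4.91 in titled UT. Here the order of the genotypes was the other way round: the ATF6aKO DSS arrays were the highest of the 12.

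Pdia4 and Pdia6 encode protein disulfide isomerases, which form and rearrange disulfide bonds. Pdia4 had levels of 1.89 and 2.03 on the ATF6aKO DSS arrays, against 1.57 and 1.28 on the ATF6aKO UT arrays. In ATF6bKO it had 1.73 and 2.0 with DSS, against 1.22 and 1.26 without. WT had 1.53 and 2.06 in titled DSS, against 1.99 and 1.52 in titled UT. Pdia4 therefore lay higher with DSS in both knockouts, by 0.54 in ATF6aKO (limma adjusted p = 0.211) and 0.62 in ATF6bKO (limma adjusted p = 0.125), and neither value passed. Pdia6 had 4.82 and 4.96 on the ATF6aKO DSS arrays, against 5.18 and 4.63 on the ATF6aKO UT arrays. In ATF6bKO it had 5.13 and 5.28 with DSS, against 4.70 and 4.86 without. WT had 4.86 and 4.93 in titled DSS, against 5.28 and 4.91 in titled UT. Pdia6 had the narrowest range of group means among the 9 genes (0.43 log2 units), and each neighbouring pair in the order of its groups overlapped.

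**Figure D3:**
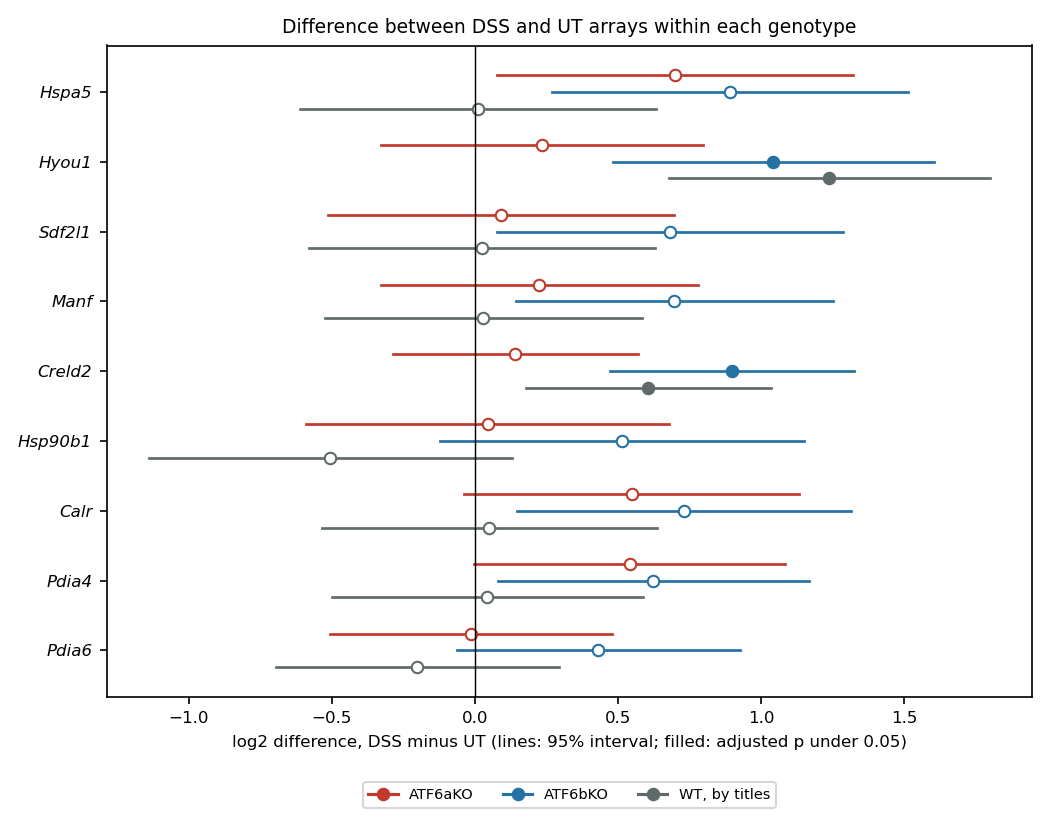
Log2 difference between DSS and UT arrays (horizontal axis) for the 9 genes in ATF6aKO, ATF6bKO and WT by titles; lines are 95% intervals and filled points passed the adjusted threshold of 0.05. The filled points are Hyou1 and Creld2, in ATF6bKO and in WT by titles.

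In ATF6bKO, 2 of the 9 genes passed the test (Hyou1 and Creld2), both higher, where 12.9% of all genes passed and 5.68% passed as higher. At an unadjusted p under 0.05 there were 7, against 28.2% of all genes. Leaving the 4 WT arrays out of the fit gave 6 genes past the threshold, where 19.9% of all genes passed: Hyou1, Creld2, Hspa5, Pdia4, Calr and Manf. The count fell to 0 when ATF6bKO UT replicate 1 or ATF6bKO DSS replicate 2 was left out, and to 1 without either other ATF6bKO array. It was 4 when either titled UT array of WT was left out (22.7% of all genes), and 0 with only the 4 ATF6bKO arrays in the fit.

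In ATF6aKO, limma called 0 of the 9 genes, where 6.38% of all genes passed, and 1 of the 9 (Hspa5) had an unadjusted p under 0.05, against 23.9% of all genes. Without the WT arrays Hspa5 alone passed, where 12.6% of all genes passed. The 2 ATF6aKO UT arrays differed in these genes: all 9 were higher on replicate 1 than on replicate 2, by a median of 0.42, while 50.5% of all genes were higher on replicate 1. The members' median DSS difference in ATF6aKO was 0.47 without UT replicate 1 and −0.01 without UT replicate 2, and no gene passed either way. Such joint shifts between the 2 arrays of a group were also seen elsewhere: all 9 genes were higher on replicate 2 of WT titled DSS (median 0.30), of ATF6bKO UT (median 0.20) and of ATF6aKO DSS (median 0.12). Of all genes, 50.4%, 45.1% and 46.4% were higher on replicate 1 in these groups. In ATF6bKO DSS 8 of the 9 were higher on replicate 2 (median 0.20), while 50.9% of all genes were higher on replicate 1. In WT titled UT 5 of the 9 were higher on replicate 1, against 55.8% of all genes.

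Over both knockouts together, 4 of the 9 genes rose with DSS, where 29.1% of all genes passed and 13.2% passed as higher. They were Hspa5 (0.80, SE 0.12, limma adjusted p = 0.00462), Calr (0.64, SE 0.13, limma adjusted p = 0.0123), Hyou1 (0.64, SE 0.20, limma adjusted p = 0.0495) and Pdia4 (0.58, SE 0.11, limma adjusted p = 0.00917). The other 5 had positive values from 0.21 (Pdia6) to 0.52 (Creld2), and the median of the 9 was 0.52, against −0.01 over all genes. The calls of Hspa5, Calr and Pdia4 held under all 15 alternatives tried, with adjusted p up to 0.0388. Hyou1 lost its call under 10 of the 15, with adjusted p up to 0.119. Without ATF6aKO UT replicate 1 the count was 7, with Creld2, Manf and Sdf2l1 added, where 20.1% of all genes passed.

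The response in ATF6aKO minus that in ATF6bKO was negative for all 9 genes, from −0.81 (Hyou1) to −0.08 (Pdia4), with a median of −0.47 against 0.10 over all genes. None passed the test in limma, and neither did any of the 23320 genes (0% called). At an unadjusted p under 0.05 there were 2 of the 9 genes and 1854 of all genes (7.95%). These were Creld2 at −0.76 (95% interval −1.36 to −0.15, limma adjusted p = 0.521) and Hyou1 at −0.81 (95% interval −1.60 to −0.01, limma adjusted p = 0.617). For Hspa5 the difference was −0.19 with an interval of −1.07 to 0.69 (limma adjusted p = 0.946), which holds a smaller as well as a larger response in ATF6aKO. Without ATF6aKO UT replicate 1 the median difference was −0.17, and the values of Calr (0.04) and Pdia4 (0.06) turned positive; without UT replicate 2 the median was −0.71.

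In WT, Hyou1 and Creld2 were higher in titled DSS than in titled UT, where 31.8% of all genes passed and 14.8% passed as higher, and 2 of the 9 genes lay wholly higher in titled DSS, against 30.3% of all genes. Under the treatment field the sign turns, so Hyou1 would be lower by 1.24 and Creld2 lower by 0.61 with DSS. The Creld2 call was lost under 13 of 21 alternatives, and none of the 9 genes passed in WT without titled DSS replicate 2. Against the WT response by titles, no gene passed in ATF6aKO by the probe used (7.68% of all genes called) or in ATF6bKO (14.7% called). At an unadjusted p under 0.05 there was 1 of the 9 in ATF6aKO, against 30.2% of all genes, and there were 2 in ATF6bKO, against 34.8%. With the WT groups exchanged, Hyou1 passed in ATF6aKO at 1.47 (limma adjusted p = 0.0171), and Hyou1 at 2.28 and Creld2 at 1.5 passed in ATF6bKO (limma adjusted p = 0.00295 and 0.00514). The comparisons with WT share the WT arrays.

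Without treatment, the 9 genes did not differ past the threshold between ATF6aKO and ATF6bKO (limma, 0 of 9, 0.613% of all genes called). At an unadjusted p under 0.05 there were 3 of 9, against 16.8% of all genes, with a median difference of 0.00. The largest value was that of Calr, with levels of 5.35 and 4.91 on the ATF6aKO UT arrays, against 4.0 and 4.20 on the ATF6bKO UT arrays, a difference of 1.03 (limma adjusted p = 0.103). Hspa5 had a value of −0.74 (limma adjusted p = 0.218). Against the titled UT arrays of WT, 2 genes passed in each knockout, where 46.8% of all genes passed in each. In ATF6aKO UT these were Hyou1, higher by 1.14, and Hsp90b1, lower (−1.01), where 19.6% of all genes were higher and 27.2% lower. In ATF6bKO UT, where 23.2% of all genes were higher, they were Hyou1, higher by 1.1, and Creld2, higher by 0.99. With the WT groups exchanged none of the 4 calls remained, and the Hyou1 values were −0.099 in ATF6aKO and −0.135 in ATF6bKO, so the basal order against WT depends on which WT label holds.

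Between the knockouts over both treatments, Calr was higher in ATF6aKO than in ATF6bKO, by 0.94 (SE 0.13, limma adjusted p = 0.0169). Hspa5 was lower in ATF6aKO (−0.84, SE 0.12, limma adjusted p = 0.0173), as were Creld2 (−0.88, SE 0.19, limma adjusted p = 0.0369) and Hsp90b1 (−0.74, SE 0.15, limma adjusted p = 0.0335). That is 4 of 9 genes, where 9.29% of all genes passed, 2.97% as higher and 6.33% as lower. The other 5 had values from −0.43 (Sdf2l1) to 0.14 (Pdia4). No gene passed without ATF6aKO DSS replicate 1 or without ATF6bKO DSS replicate 1. A single gene passed without ATF6bKO DSS replicate 2, and 2 passed without replicate 2 of ATF6bKO UT, of ATF6aKO UT or of ATF6aKO DSS.

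Against WT, ATF6aKO had Calr higher by 0.83 (SE 0.22, limma adjusted p = 0.0219) and Hsp90b1 lower (−0.73, SE 0.23, limma adjusted p = 0.0394), where 35.3% of all genes passed, 14.7% as higher and 20.6% as lower. ATF6bKO had Creld2 higher by 1.14 (SE 0.16, limma adjusted p = 0.00355) and Hyou1 higher by 1.01 (SE 0.21, limma adjusted p = 0.0118), where 29.3% of all genes passed and 13.7% passed as higher. With the WT groups exchanged, an alternative chosen after seeing the data, the differences stay as they are and the errors change. Hyou1 in ATF6bKO (limma adjusted p = 0.144) and Hsp90b1 in ATF6aKO (limma adjusted p = 0.0539) then lost their calls, and Creld2 in ATF6bKO and Calr in ATF6aKO passed (limma adjusted p = 0.0394 for each). Creld2 in ATF6bKO passed under all 16 alternatives, and Hyou1 under the other 15. In ATF6aKO, both calls were lost without replicate 1 of ATF6aKO UT, without either ATF6aKO DSS array or without titled DSS replicate 2. Hsp90b1 lost its call without ATF6aKO UT replicate 2, with no filter on dim probes and with the replicate block (limma adjusted p = 0.0537), and Calr without titled DSS replicate 1. In the authors' value table the median of all genes was 0.56 higher in ATF6aKO than in WT and 0.60 higher in ATF6bKO than in WT, against −0.07 and −0.02 with the percentile scaling. On the scaling of the authors' value table Hsp90b1 had a value of −0.08 (limma adjusted p = 0.787) in ATF6aKO against WT.

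**Figure D4:**
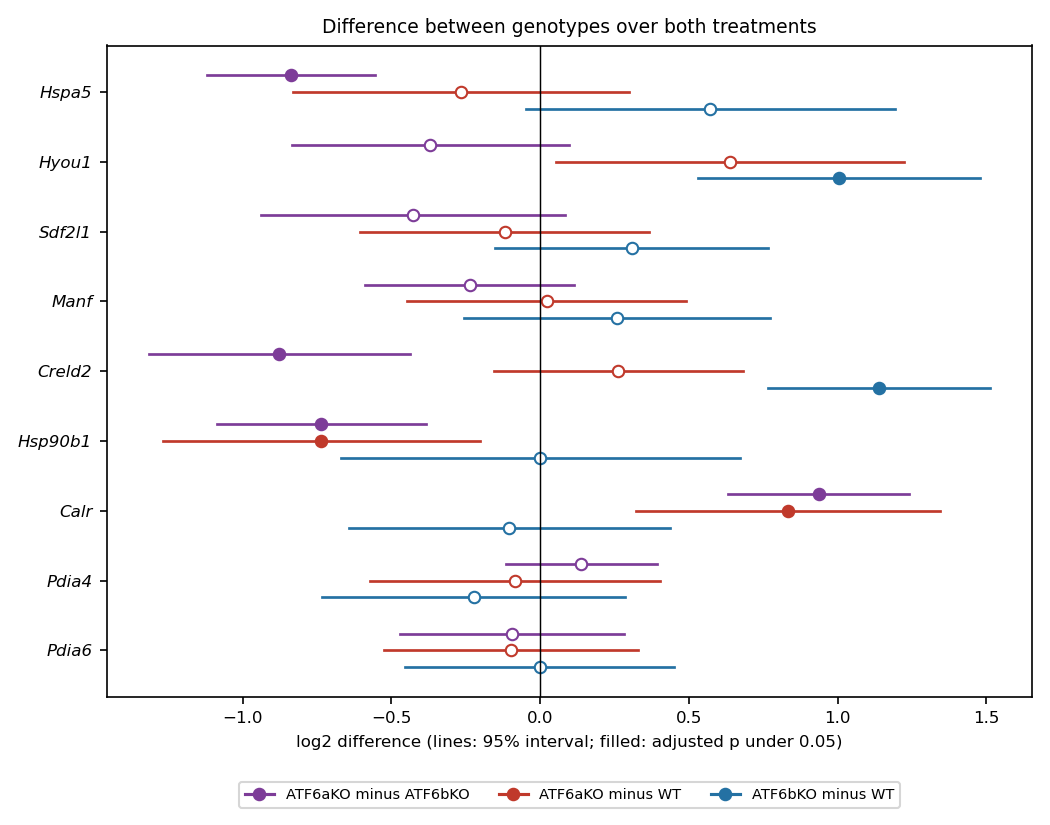
Log2 difference between genotypes over both treatments (horizontal axis) for the 9 genes; lines are 95% intervals and filled points passed the adjusted threshold of 0.05. Calr lies to the right in both ATF6aKO comparisons and Hsp90b1 to the left, and Creld2 and Hyou1 are higher in ATF6bKO than in WT, Hyou1 not past the threshold with the WT groups exchanged.

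Several genes had more than 1 probe, and the probe with the highest mean level stands for each. The second Calr probe gave a larger difference between ATF6aKO and ATF6bKO (1.27, limma adjusted p over probes = 0.00561), and the second Hsp90b1 probe one of −0.77 (limma adjusted p over probes = 0.0405), both in the direction of the probe used. In WT the Calr probes disagreed: the second was higher by 1.12 in titled DSS (limma adjusted p over probes = 0.0303), while the probe used had 0.05. For Pdia6, 1 of the 2 other probes was lower in ATF6bKO than in WT (−0.66, limma adjusted p over probes = 0.0138), while the probe used had −0.00. Without treatment both other Pdia6 probes were lower in ATF6bKO than in titled UT of WT (−0.77 and −0.68, limma adjusted p over probes = 0.0336 and 0.045), and 1 of them passed in the ATF6bKO minus WT response by titles (1.25, limma adjusted p over probes = 0.0478). The second Calr probe was higher in ATF6aKO UT than in titled UT of WT (1.70, limma adjusted p over probes = 0.00366). In the DSS difference of ATF6bKO, all the other probes had positive values, from 0.30 to 0.90.

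Across the 12 arrays the 9 genes did not vary as 1 block. As a description over arrays that share slides and treatments, the correlation of each gene with the mean of the other 8 was 0.94 for Manf, 0.87 for Sdf2l1, 0.83 for Hspa5 and 0.75 for Creld2. It was 0.64 for Pdia6, 0.62 for Hyou1, 0.54 for Pdia4, 0.31 for Hsp90b1 and 0.05 for Calr. Calr had the lowest value, and its correlations with single genes ran from −0.53 (Hsp90b1) to 0.44 (Pdia4). Hsp90b1 had 0.70 with Pdia6 and 0.69 with Hspa5, but −0.09 with Hyou1. Among 12711 named genes well above background on all arrays, the pattern most like the mean of the 9 was that of Socs1 (r = 0.94), which encodes an inhibitor of cytokine signalling. Il18bp, Ifit3b, Psmb8 and Trafd1 followed, at r from 0.91 to 0.89. Psmb8 encodes a subunit of the immunoproteasome and Il18bp a secreted binder of interleukin 18.

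The rest of the ER stress pathway was followed in 3 further lists. Of 19 measured other ER folding factors, 3 rose with DSS over both knockouts and 1 fell, where 13.2% of all genes rose and 15.8% fell. Those that rose were Ero1b, an oxidase that recharges disulfide isomerases (0.56), Dnajc3, a BiP co-chaperone that also restrains the kinase PERK (0.52), and Dnajc1, a further J-domain co-chaperone (0.33). The one that fell was Pdia5, a disulfide isomerase (−0.56). The median of the list was 0.18. Of 10 genes of ER-associated degradation, which returns misfolded proteins to the proteasome, Derl2 rose (0.36), with a list median of 0.18. Of 10 stress sensors and transcription factors, Creb3l2, a membrane-bound relative of ATF6, rose (0.50). Ern2, the epithelial form of the sensor IRE1, fell (−0.78), as did Ddit3, the stress factor CHOP (−0.57), and the list median was −0.01.

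Within single knockouts few of these genes passed. In ATF6bKO, Ero1b (0.74) and Dnajc3 (0.66) rose among the 19 folding factors, where 5.68% of all genes passed as higher. None of the other lists' genes passed there. In ATF6aKO, Ddit3 fell (−0.66) and no other gene of the 3 lists passed, where 6.38% of all genes passed. Between the knockouts over both treatments, 4 of the 19 folding factors were higher in ATF6aKO than in ATF6bKO and none was lower, among them Txndc5 (0.82), Dnajb9 (0.79) and P4hb (0.72). Of all genes, 2.97% passed as higher there and 6.33% as lower. Xbp1, the transcription factor activated by IRE1, was also higher in ATF6aKO (0.49). Of the chaperones that passed in that comparison, Hspa5, Hsp90b1 and Creld2 had the opposite sign, and Calr had the same sign (0.94). In the promoter windows, ERSE matched in 3 of 18 other folding factors (Canx, Dnajc3 and Ero1b), in 2 of 9 degradation genes (Derl3 and Syvn1) and in none of 8 sensors and factors.

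**Figure D5:**
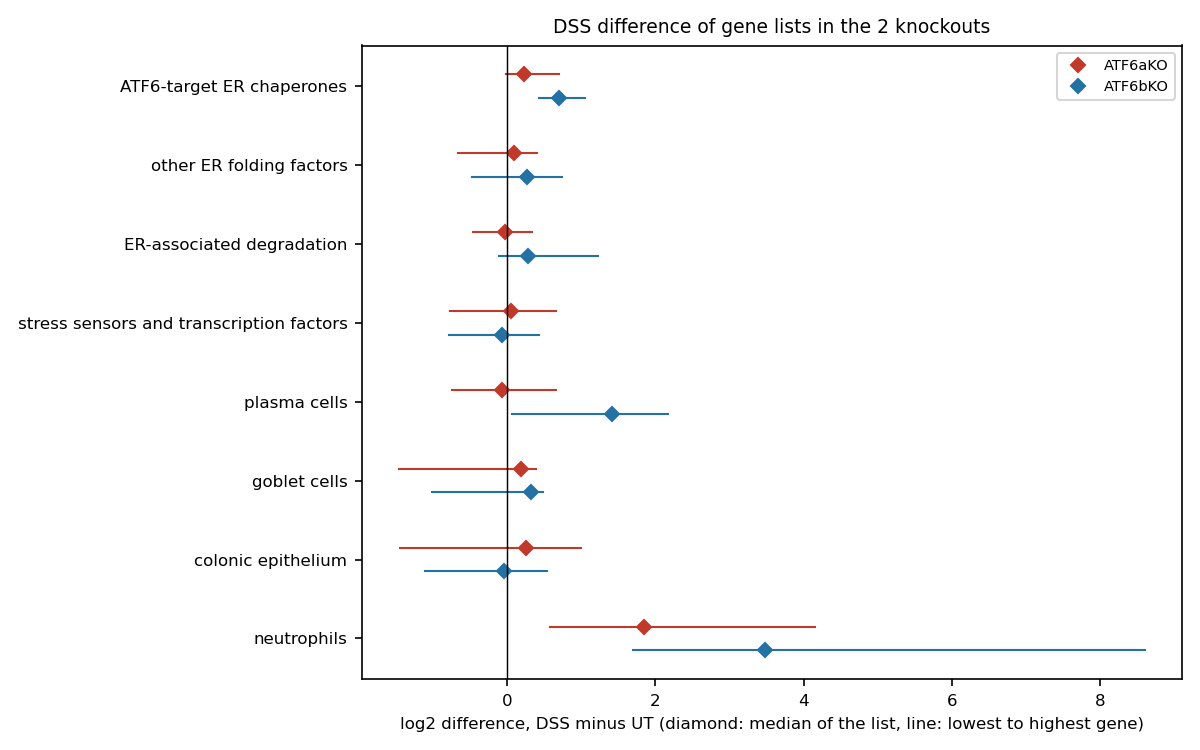
DSS minus UT log2 difference (horizontal axis) in ATF6aKO and ATF6bKO for 8 gene lists; diamonds are the median of a list and lines run from its lowest to its highest gene. The chaperone list has medians of 0.23 in ATF6aKO and 0.70 in ATF6bKO, and the plasma cell list medians of −0.07 in ATF6aKO and 1.41 in ATF6bKO.

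Markers of other cells also differed between groups, not always in the direction of the chaperones. Each array held RNA from the whole colon, so fewer cells of a type and less RNA per cell cannot be told apart. Of 8 measured plasma cell markers, 4 rose with DSS in ATF6bKO, where 5.68% of all genes passed as higher: Pou2af1 (2.17), Prdm1 (1.81), Irf4 (1.71) and Mzb1 (1.47). None rose in ATF6aKO, where the list median was −0.07, against 1.41 in ATF6bKO. The summed linear level of the list was 171 to 190 on the ATF6bKO DSS arrays and 53.8 to 108 on the ATF6bKO UT arrays. It was 132 to 210 on the ATF6aKO DSS arrays and 157 to 180 on the ATF6aKO UT arrays. Jchain, which encodes the joining chain of secreted antibodies, had mean levels of 7.31 in ATF6bKO DSS and 5.95 in ATF6bKO UT and carried most of that sum. On the WT arrays the plasma cell sum was 68.0 to 94.2 in titled DSS and 121 to 265 in titled UT.

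All 8 neutrophil markers rose with DSS in ATF6bKO and 4 of 8 in ATF6aKO. Of all genes, 5.68% passed as higher in ATF6bKO and 12.9% passed either way. The share passing either way was 6.38% in ATF6aKO and 31.8% in WT by titles, and 13.2% passed as higher over both knockouts. The summed level of the neutrophil markers was 25.6 to 26.4 on the ATF6bKO DSS arrays and 0.45 to 0.46 on the ATF6bKO UT arrays. In ATF6aKO it was 3.54 to 3.67 with DSS and 0.45 to 0.58 without. On the WT arrays it was 0.96 to 2.47 in titled DSS and 0.50 to 0.79 in titled UT, with 2 of 8 markers higher, none lower and a median of 0.96. Only 4 of the 8 neutrophil markers were well above background on both ATF6bKO UT arrays. The number was 6 of 8 in ATF6aKO UT and in each WT group, so the size of the rises is uncertain for the dim markers. All 8 markers of crypt base and dividing cells fell with DSS in both knockouts. In WT 4 of the 8 were lower in titled DSS and none higher, with a median of −0.97 and Lgr5, a stem cell marker, at −3.68. With the WT groups exchanged these signs turn. All 6 fibroblast markers rose with DSS over both knockouts (median 0.70), with medians of 0.82 in ATF6aKO and 0.61 in ATF6bKO, where 1 of 6 passed in each. Goblet cell markers had 0 of 8 genes past the threshold in ATF6bKO (median 0.32), and 1 of 8, lower, in ATF6aKO (median 0.19). Of 10 pancreatic acinar markers 5 were measured, with summed levels from 0.56 to 2.30 over all arrays. The measured markers of neutrophils, of pancreatic acinar cells and of crypt base and dividing cells were not all well above background in every group. The part of these cells in the chaperone differences was not tested.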

How the data were processed

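The authors scanned the arrays and quantified them with Agilent Feature Extraction 10.7.1.1, per the submitters' processing notes. Each deposited scanner file gives the processed signal of its spots, an intensity from which background had been subtracted, with no scaling between arrays. The authors' value table holds log2 values of the same arrays, centred per probe, with a scaling not given in the sources used here. In 8 of its 12 columns the values were those of another sample's array (the 4 WT columns exchanged between the WT groups, the 4 ATF6aKO columns between replicates of a group), so it was used only as an alternative, after each column was matched to its array by value.

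Control and outlier spots were left out (54 to 108 outlier spots per array), and no spot was saturated. From the processed signal, log2 levels were taken relative to each array's 75th percentile, and spots of a probe averaged. Probes well above background on both arrays of at least 1 group were kept (30428 of 41174). A gene was represented by its probe with the highest mean level. Unversioned probe accessions were matched to symbols through RefSeq (GRCm38.p6), which named 61.2% of probes. The number of arrays, 2 per group, limits the precision, and 66.0% to 76.9% of spots were well above background.

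Differences were fitted over 23320 genes with limma 3.58.1 (lmFit, eBayes) in R 4.3.3, with Benjamini-Hochberg adjustment over all genes and a threshold of 0.05. The DSS and untreated comparisons came from 1 fit of 6 group means. The pooled DSS comparison used 8 arrays with genotype as a term, and each genotype comparison 8 arrays with treatment as a term, which makes 13 comparisons. The fit was tested on simulated data. The members, lists, alternatives and the rule for named genes were chosen with earlier results of these data known. The rule names the members, the targeted genes, from each pathway list no more than the 3 largest changes each way among genes that passed, and the 5 genes most like the members' mean. Same-numbered samples in 15 pairs of groups had correlations of deviations from −0.22 to 0.14, over 0.1 in 2 pairs, so the numbers were not taken as pairing the samples.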

Additional observations from a re-analysis of the deposited data

How the results depend on the processing

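Of 2250 recomputed values of single genes, 1992 kept their direction and side of the threshold, and 114 changed sign with neither value past it. The counts below are of the 9 genes past the threshold. Without the WT arrays the count was 1 in ATF6aKO and 6 in ATF6bKO for DSS against UT, where the full fit gave 0 and 2. With only the arrays compared it was 0 in ATF6bKO, 0 in WT, and, without treatment, 1 for ATF6aKO and 0 for ATF6bKO against WT. With no filter on dim probes it was 1 in ATF6bKO and 1 in WT for DSS, 1 for ATF6aKO against WT and 2 for ATF6aKO against ATF6bKO. With normexp background correction it was 1 for the ATF6aKO minus WT response and 1 for untreated ATF6aKO against ATF6bKO. With the replicate block, which pairs samples by number, it was 1 for WT, 1 for ATF6aKO against WT and 2 for ATF6aKO against ATF6bKO, and no other count moved by over 1.5 times. With the deposited value table it was 6 for each knockout against WT and 4 for each untreated knockout against WT. All-gene counts against WT, over the alternatives other than leaving out an array, ran from 5781 to 12121 in ATF6aKO and from 4985 to 12436 in ATF6bKO. Without treatment they ran from 4523 to 12013 in ATF6aKO and from 3715 to 13000 in ATF6bKO, where the full fit tested 23320 genes. In the value table Pdia4 (0.58) and Pdia6 (0.56) in ATF6aKO against WT and Pdia6 (0.64) in ATF6bKO against WT turned positive. Manf without treatment in ATF6aKO (0.60) and ATF6bKO (0.58) against WT also turned positive there. With the WT groups exchanged the count of the 9 genes was 1 for the ATF6aKO and 2 for the ATF6bKO response against WT. It was 0 for each untreated knockout against WT and, as an alternative chosen after seeing the data, 1 for each knockout against WT over both treatments. Values that reversed there were WT Creld2 (−0.61) and Hyou1 (−1.24), the Hyou1 responses minus WT (1.47 in ATF6aKO, 2.28 in ATF6bKO), and untreated Hyou1 (−0.099 in ATF6aKO, −0.135 in ATF6bKO against WT). The sign changes with the WT groups exchanged follow from the exchange itself. In the value table, all 9 genes moved up by the same amount within each knockout against WT comparison, as a change of scaling between arrays does. In ATF6aKO against WT over both treatments, Calr went from 0.83 to 1.49 and Hspa5 from −0.27 to 0.39. The cause of the remaining changes was not tested, except that fewer arrays in a fit leave fewer degrees of freedom.

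Leaving out each array in turn gave counts of 0 to 0 for DSS in ATF6aKO, 0 to 4 in ATF6bKO, 0 to 2 in WT and 3 to 7 pooled. It gave 0 to 0 for the ATF6aKO minus ATF6bKO response and 0 to 2 for each response minus WT. It gave 0 to 2 for ATF6aKO against WT, 2 to 2 for ATF6bKO against WT and 0 to 4 for ATF6aKO against ATF6bKO. Without treatment it gave 0 to 1 for ATF6aKO against ATF6bKO and 1 to 4 for each knockout against WT. A slide block was not run, since each genotype has a slide of its own. Counts over all genes also moved under the other alternatives, which keep both arrays of each group they use. There they ran from 1152 to 13189 for ATF6aKO against ATF6bKO over both treatments (2167 in the full fit). For DSS they ran from 1799 to 4641 in ATF6bKO (3011), from 695 to 2934 in ATF6aKO (1487) and from 681 to 7796 in WT (7412).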

Other observations

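Exact ERSE matches lay in the promoter windows of 37 genes, 27 of them outside the chaperone and ER stress lists of the report, and 10 of those 27 were tested. With DSS, Acacb (1.16) rose in ATF6bKO and Pan2 fell (−1.21), with a median of −0.20, where 5.68% of all genes rose. In ATF6aKO Pan2 alone passed, and fell (−0.68), with a median of −0.08. Over both knockouts Acacb rose (0.85) and 2 fell (Calr4 and Pan2), with a median of 0.01. Acacb, Pan2 and Calr4 were named after their values were seen. An exact match in a window says nothing of binding. The 9 measured chaperones had medians of 0.23 in ATF6aKO and 0.70 in ATF6bKO. Of these 9, 5 carry the element, Pdia4 and Sdf2l1 lack it in their windows, and Hyou1 and Manf had no window to search.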
